A study of Mus musculus with 16 samples.

Results

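The genes described here are the 10 that encode the MEKK3-ERK5-MEF2 pathway, through which flowing blood induces the transcription factor genes Klf2 and Klf4 in endothelium, and the cerebral cavernous malformation (CCM) complex, which restrains that pathway. They were taken by name from the table of all genes, and all 10 of the 43629 genes listed were found. The kinase cascade gives 3 of them (Map3k3, Map2k5 and Mapk7), the MEF2 transcription factors 3 (Mef2a, Mef2c and Mef2d), the CCM complex 3 (Krit1, Ccm2 and Pdcd10) and its membrane receptor 1 (Heg1). All 10 passed the filter on low values in every group, so none was lost from the tests. RNA had been sequenced from microvascular endothelial cells that CD31 beads pulled from the heart of C57BL/6J mice, 8 to 10 weeks old at the injection and sampled on day 6 after tamoxifen. There were 4 groups of 4 libraries. They carried endothelial deletion of both Klf2 and Klf4 (DKO), of Klf2 alone (K2KO), of Klf4 alone (K4KO), or Cre without a deleted gene (control), and each library pooled cells of 2 mice. Tamoxifen and Cre were thus shared by all groups, and the sources used here do not give the promoter that drives Cre.

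MEKK3, the product of Map3k3, phosphorylates MEK5 (Map2k5), which in turn activates ERK5 (Mapk7), and ERK5 switches on MEF2 factors at the promoters of Klf2 and Klf4. The CCM complex joins KRIT1, CCM2 and PDCD10. KRIT1 is held at the membrane by the tail of HEG1, and CCM2 binds MEKK3 and damps its activity. Loss of a CCM protein in endothelium is known to raise MEKK3 signalling and to cause cavernous malformations of small vessels in the brain.

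A promoter window of 300 bases, 250 before and 50 after the start site, was available for all 10 genes from RefSeq (build GRCm38.p6), with 3 start sites for Mef2c and 2 each for Mapk7, Krit1 and Ccm2. The windows below belong to the 4 genes whose change against control was called under every processing tried (Map3k3, Mef2a, Pdcd10 and Heg1) and to Klf2, the gene that MEF2 factors are known to induce. Each is written 5′ to 3′ along its own gene, and capitals mark CACCC or its complement GGGTG, the box that Krüppel-like factors bind, and CTANNNNTAG, the outline of a MEF2 site.
Heg1 (chr16:33684216-33684515, plus strand): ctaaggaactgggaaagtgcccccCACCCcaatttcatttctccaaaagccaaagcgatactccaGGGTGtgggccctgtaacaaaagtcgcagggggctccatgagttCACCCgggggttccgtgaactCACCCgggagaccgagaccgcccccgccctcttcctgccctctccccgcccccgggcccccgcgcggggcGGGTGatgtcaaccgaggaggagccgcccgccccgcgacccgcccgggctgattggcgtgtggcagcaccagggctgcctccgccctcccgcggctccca
Map3k3 (chr11:106084337-106084636, plus strand): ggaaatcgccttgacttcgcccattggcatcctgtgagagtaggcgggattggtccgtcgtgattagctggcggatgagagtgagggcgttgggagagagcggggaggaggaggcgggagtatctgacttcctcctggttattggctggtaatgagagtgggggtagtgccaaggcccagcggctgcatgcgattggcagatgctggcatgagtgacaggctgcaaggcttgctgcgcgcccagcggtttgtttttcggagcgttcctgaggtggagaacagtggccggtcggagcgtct
Mef2a (chr7:67372809-67373108, minus strand): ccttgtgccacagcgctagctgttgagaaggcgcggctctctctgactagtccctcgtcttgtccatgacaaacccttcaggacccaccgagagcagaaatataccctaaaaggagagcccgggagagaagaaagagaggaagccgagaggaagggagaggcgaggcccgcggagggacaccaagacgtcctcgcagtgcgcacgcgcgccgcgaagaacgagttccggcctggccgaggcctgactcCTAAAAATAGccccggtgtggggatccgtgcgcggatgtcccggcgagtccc
Pdcd10 (chr3:75556803-75557102, minus strand): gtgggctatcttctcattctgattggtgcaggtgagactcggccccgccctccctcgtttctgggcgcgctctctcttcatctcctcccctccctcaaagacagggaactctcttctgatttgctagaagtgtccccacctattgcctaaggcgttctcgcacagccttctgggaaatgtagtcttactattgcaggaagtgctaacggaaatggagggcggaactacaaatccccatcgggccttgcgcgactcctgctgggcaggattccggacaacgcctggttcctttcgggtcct
Klf2 (chr8:72318812-72319111, plus strand): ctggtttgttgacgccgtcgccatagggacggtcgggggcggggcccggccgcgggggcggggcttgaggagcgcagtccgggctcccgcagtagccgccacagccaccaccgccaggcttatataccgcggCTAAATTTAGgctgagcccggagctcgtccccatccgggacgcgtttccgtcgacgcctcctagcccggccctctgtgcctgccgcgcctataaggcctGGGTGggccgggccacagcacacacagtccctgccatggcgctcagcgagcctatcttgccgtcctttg

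Searched on both strands, CACCC occurred 5 times in the Heg1 window and in both Mapk7 windows, and 0 times in those of Map3k3, Mef2a and Pdcd10. Of 32851 mouse promoter windows of this length, 57.5% held it. GGGCGG, the box that Sp factors bind, occurred 8 times in the Heg1 window, 2 times in the Pdcd10 window and 0 times in those of Map3k3 and Mef2a, and was found in 35.7% of all windows. The Ccm2 windows held 6 and 0, both Mapk7 windows 3, that of Mef2d 2 and that of Map2k5 1. The Mef2c windows held 0, 1 and 0, and those of Krit1 0. In the Heg1 window 1 GGGCGG match shares bases with a GGGTG. CTANNNNTAG was found in 3.69% of all windows. It stood in the Klf2 window as CTAAATTTAG at position -118 from the start site, and in the Mef2a window as CTAAAAATAG at position -2. Both windows of Krit1 hold it as CTATAGCTAG, whose inner letters are not all the A or T known for MEF2 sites. These are matches of letters, and binding was not measured.

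Library totals, in megareads, ran over 25.3 to 29.3 for 3 DKO-labelled libraries, with 106 for DKO library 4. The K2KO totals were 32.4 to 51.0 megareads, the K4KO totals 21.1 to 25.4 megareads and the control totals 23.5 to 24.3 megareads. Values are scaled counts, which are read counts divided by 1 factor per library, and 1 read was worth 0.305 to 1.46 of them. The targeted genes were read first. Klf2 had 3080, 3389, 3378 and 3571 scaled counts in K2KO, against 5538, 6597, 10705 and 6066 in control, a log2 change of -1.06 ± 0.16 (SE, limma adjusted p = 0.00682, and 0.0879 with robust limma). Klf4 had 5088, 5756, 6780 and 5654 in K4KO, against 7987, 8960, 13342 and 8476 in control. Every K4KO library lay below every control library, with a log2 change of -0.71 (limma adjusted p = 0.118, and 0.0284 with the replicate number as a block). The DKO label was not borne out by transcript levels, since no fall of either gene was called there. In these libraries Klf2 had 7318, 9380, 10990 and 8576 scaled counts and Klf4 7994, 10120, 11829 and 7845, with log2 changes against control of 0.36 and -0.03 (limma adjusted p = 0.0881 and 0.923). Klf2 was called higher there without control library 3 or DKO library 2 (limma adjusted p = 0.00137 and 0.0392). This group is called DKO-labelled from here on. The table gives reads per whole gene, so which exons the reads cover was not seen.

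Markers of the labelled cell type were high in all groups. The 12 endothelial markers summed to 313040 to 362520 scaled counts in DKO-labelled libraries, 300289 to 335171 in K2KO, 278088 to 295681 in K4KO and 266612 to 323907 in control. Single markers went both ways in DKO-labelled libraries against control, 6 called higher and 4 lower, with log2 changes from -0.99 (Tek) to 1.45 (Cldn5). RNA of heart muscle cells was present too, and less so in the DKO-labelled libraries. There the 14 cardiomyocyte markers summed to 52982 to 89568 scaled counts, against 246403 to 391587 in K2KO, 276547 to 507372 in K4KO and 234191 to 558115 in control. All 14 were called lower against control (median log2 -1.78), and none was at 0 in any group. Erythroid markers fell alike, 6 of 6, and lymphocyte markers 5 of 7, while mural cell markers fell in 3 of 9. Fibroblast markers rose in 3 and fell in 2 of 9, and macrophage markers fell in 2 of 9. Of all genes tested, 38.3% were called in this comparison, 19% higher and 19.3% lower. The mural and macrophage calls were all lower, at 33.3% and 22.2% of these markers, which stand beside the 19.3%. The mural markers also summed to less, 75892 to 92794 scaled counts in DKO-labelled libraries, against 121936 to 130528 in control. Their sums were 122524 to 138449 in K2KO and 119772 to 154526 in K4KO. Rgs5, the most abundant, averaged 45645 ± 3935 in DKO-labelled libraries and 72623 ± 4648 in control (SD, n = 4 each). Against K2KO and K4KO, 5 and 6 of the 9 were called lower, where 18.9% and 20.4% of all genes were. Mitochondrial rRNA took 16.8 to 18.2% of reads in DKO-labelled libraries, against 18.2 to 20.9% in K2KO, 19.1 to 22.8% in K4KO and 18.6 to 22.7% in control. The part of these cells and of this share in the values of the 10 genes was not tested, and in such bulk libraries fewer cells of a type and less RNA per cell cannot be told apart.

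The comparison of DKO-labelled libraries with control asks what the pathway above Klf2 and Klf4 does when both factors are targeted. Of the 10 genes, 5 rose (Map3k3, Mapk7, Mef2a, Krit1 and Pdcd10) and 2 fell (Mef2d and Heg1). The call is a limma adjusted p below 0.05 over 23816 genes, and by it 38.3% of all genes tested were called in this comparison, 19% higher and 19.3% lower. Heg1 fell the most and Pdcd10 rose the most of the 10. In 5 genes the libraries did not overlap, 3 higher (Map3k3, Mef2a and Pdcd10) and 2 lower (Mef2d and Heg1), where 37% of all genes tested did not overlap, 18.9% higher and 18.1% lower. The median log2 change was 0.14 over the 10 genes and -0.03 over all genes tested. With a common median set for all libraries, the median of all genes was 0.18 and 5 of the 10 were called higher and 1 lower. With that scaling, 6922 of the 23816 genes tested were called higher and 2908 lower. Of all calls, 70.4% were then higher, where 49.7% are without that scaling. The authors' deposited table calls 5 of the 10 at an adjusted p below 0.05, namely Map3k3, Mef2a, Mef2d, Pdcd10 and Heg1, and 21.7% of the 28133 genes to which it gives an adjusted p.

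**Figure D1:**
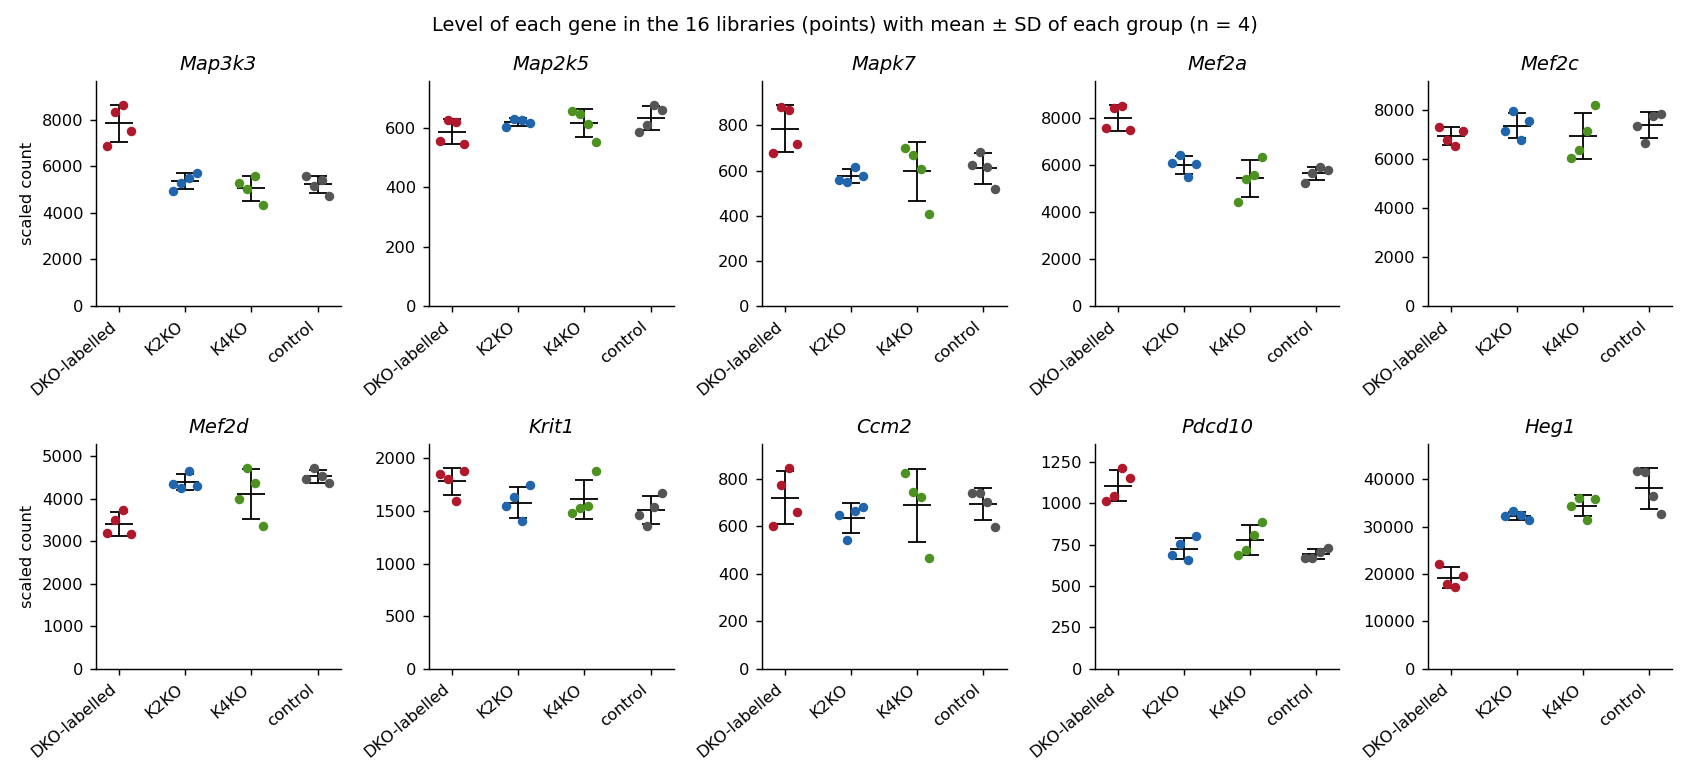
Scaled counts of the 10 genes (vertical axis, linear, from 0) in the 4 libraries of each group (points), with the group mean and SD as bars. The DKO-labelled points stand above all control points for Map3k3, Mef2a and Pdcd10 and below them for Mef2d and Heg1, and the K2KO and K4KO points overlap the control points for all 10 genes.

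Within the kinase cascade the top kinase and the bottom kinase rose, and no change of the middle one was detected. Map3k3 had 6893, 8319, 8626 and 7514 scaled counts in DKO-labelled libraries, against 5566, 5160, 5424 and 4741 in control. All 4 DKO-labelled libraries lay above every control library, and the log2 change was 0.58 ± 0.09 (SE, n = 4 each, limma adjusted p = 3.46e-05). Map2k5, whose product links MEKK3 to ERK5, had 556, 629, 621 and 546 scaled counts, against 587, 612, 678 and 660 in control. The groups overlapped, and its log2 change of -0.11 had a 95% interval of -0.28 to 0.06 (limma adjusted p = 0.342). Mapk7 had 677, 880, 869 and 716 scaled counts in DKO-labelled libraries, against 624, 681, 615 and 518 in control. Here 3 of 4 DKO-labelled libraries exceeded every control library. Its log2 change was 0.36 ± 0.14 (limma adjusted p = 0.0493), just inside the threshold, and it missed the threshold without DKO library 3, 4 or 5 or control library 1, 3 or 4 (limma adjusted p = 0.0523 to 0.145).

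The 3 MEF2 genes parted ways. Mef2a rose, Mef2d fell and Mef2c was not called. Mef2a had 7592, 8466, 8519 and 7499 scaled counts in DKO-labelled libraries, against 5246, 5653, 5931 and 5783 in control, a log2 change of 0.50 ± 0.09 (SE, n = 4 each, limma adjusted p = 0.000207). Mef2d had 3194, 3513, 3749 and 3172, against 4468, 4731, 4530 and 4384 in control. The 2 sets did not overlap, and its log2 change was -0.41 ± 0.09 (limma adjusted p = 0.000983). With the libraries scaled to the same median the Mef2d change was -0.15 (limma adjusted p = 0.302). Mef2c, which is also known from heart muscle and B cells, had 7330, 6767, 6531 and 7166 scaled counts, against 7355, 6672, 7762 and 7857 in control. Its groups overlapped, and the log2 change of -0.09 had a 95% interval of -0.28 to 0.10 (limma adjusted p = 0.488). It was 0.17 with libraries scaled to the same median. MEF2 genes are also expressed by heart muscle, whose 14 markers fell in these libraries as given above.

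The balance among the MEF2 transcripts differed as well. The ratio of Mef2a to Mef2d scaled counts was 2.27 to 2.41 in DKO-labelled libraries, against 1.18 to 1.51 in K2KO, 1.11 to 1.88 in K4KO and 1.17 to 1.32 in control. The ratio of Mef2a to Mef2c was 1.04 to 1.30 in DKO-labelled libraries and 0.713 to 0.847 in control. In both ratios the DKO-labelled libraries stood above all others, where K2KO reached 0.855 and K4KO 0.845 for Mef2a to Mef2c. These ratios are within a library, so a factor per library cancels out of them. A shift with GC content, described below, need not cancel, since the transcripts of Mef2a and Mef2d hold 42.0 and 55.0% GC. The K4KO ratio of 1.88 is that of K4KO library 4, with 6340 scaled counts of Mef2a and 3367 of Mef2d.

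Of the CCM complex, Pdcd10 rose clearly, Krit1 rose by little and Ccm2 was not called. Pdcd10, whose protein joins CCM2 to kinases of the STK24, STK25 and STK26 family, had 1013, 1043, 1215 and 1156 scaled counts in DKO-labelled libraries, against 671, 668, 704 and 732 in control. The lowest DKO-labelled library exceeded the highest control library, and the log2 change was 0.67 ± 0.09 (SE, n = 4 each, limma adjusted p = 1.10e-05). Krit1 had 1848, 1808, 1595 and 1876, against 1464, 1356, 1541 and 1669 in control. DKO-labelled library 4 fell inside the control range, and the log2 change of 0.24 ± 0.09 was just past the threshold (limma adjusted p = 0.0475). The Krit1 call was lost without DKO library 2, 3 or 5 or control library 1, 2 or 3 (limma adjusted p = 0.0670 to 0.151), and with quantile normalisation (limma adjusted p = 0.435). Ccm2, the scaffold that binds MEKK3, had 600, 774, 846 and 660 scaled counts in DKO-labelled libraries, against 739, 741, 702 and 597 in control. The groups overlapped, and the log2 change of 0.04 had a 95% interval of -0.27 to 0.36 (limma adjusted p = 0.863).

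Heg1, the receptor that anchors KRIT1 at the membrane, showed the largest change of the 10 genes. It had 22159, 17982, 17217 and 19535 scaled counts in DKO-labelled libraries, against 41661, 41563, 36476 and 32780 in control. The highest DKO-labelled library was below the lowest control library. Its log2 change was -0.99 ± 0.10 (SE, n = 4 each, limma adjusted p = 1.82e-07), a fold of 0.504. The ratio of Heg1 to Krit1 scaled counts averaged 10.8 ± 0.87 in DKO-labelled libraries, against 20.6 ± 2.15 in K2KO, 21.5 ± 2.19 in K4KO and 25.6 ± 4.93 in control (SD, n = 4 each). The DKO-labelled ratios lay below those of all other libraries.

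In the single knockouts none of the 10 genes was called. Both comparisons use the same 4 control libraries, so their values are given side by side and are not independent. Against control, 0 of the 10 were called in K2KO, where 0.168% of all genes tested were, and 0 of the 10 in K4KO, where 0.063% were. At an unadjusted p below 0.05 Heg1 alone passed in K2KO, and none passed in K4KO. With edgeR and DESeq2 on the recovered reads the counts of members called were also 0 in both. Over all genes, 40 were called in K2KO and 15 in K4KO. Leaving out 1 library gave 13 to 137 in K2KO (137 without control library 3, and 13 to 25 without any other) and 4 to 14 in K4KO (4 without control library 1 or 2, 6 without K4KO library 3, 8 without K4KO library 2 and 9 without control library 3). In K2KO the log2 changes ran from -0.23 (Heg1) to 0.09 (Mef2a), and in K4KO from -0.15 (Mef2d) to 0.16 (Pdcd10). Heg1 had 32202, 33294, 32543 and 31311 scaled counts in K2KO and 34418, 36025, 31367 and 35895 in K4KO, against 41661, 41563, 36476 and 32780 in control. In K2KO 3 of 4 libraries, and in K4KO 1 of 4, lay below every control library. The 95% interval of the Heg1 change was -0.43 to -0.03 in K2KO (limma adjusted p = 0.698) and -0.34 to 0.06 in K4KO (limma adjusted p = 0.813). Pdcd10 had 686, 755, 660 and 804 scaled counts in K2KO and 689, 721, 811 and 889 in K4KO, against 671, 668, 704 and 732 in control. Its log2 change was 0.06 in K2KO and 0.16 in K4KO (limma adjusted p = 0.992 and 0.772).

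Set against each single knockout, the DKO-labelled libraries gave the same 6 genes. These 2 comparisons share the DKO-labelled libraries with each other and with the comparison above. Map3k3, Mapk7, Mef2a and Pdcd10 were called higher and Mef2d and Heg1 lower in each, where 36.6% of all genes tested were called against K2KO (17.7% higher and 18.9% lower) and 39.6% against K4KO (19.1% higher and 20.4% lower). The log2 change of Heg1 was -0.76 against K2KO and -0.85 against K4KO (limma adjusted p = 4.41e-06 and 1.06e-06). Pdcd10 differed by 0.61 and 0.51 (limma adjusted p = 3.77e-05 and 0.000201), and Map3k3 by 0.54 and 0.64 (limma adjusted p = 8.16e-05 and 1.30e-05). Mef2a differed by 0.41 and 0.57 (limma adjusted p = 0.00144 and 6.01e-05). The Mapk7 and Mef2d calls were less firm. Mapk7 differed by 0.44 and 0.42, and its call against K2KO was lost without DKO library 3 or 4. Against K4KO it was lost without DKO library 3 or 4 and without K4KO library 4, where it was 0.24 (limma adjusted p = 0.0805), and with quantile normalisation in both (limma adjusted p = 0.0551 against K2KO and 0.0786 against K4KO). With only the groups compared and with robust limma its call against K4KO was lost too (limma adjusted p = 0.0688 and 0.0530). Mef2d differed by -0.37 and -0.26, and its call against K4KO held in 10 of 18 alternatives. It was lost without DKO library 2 or 5 or K4KO library 2 or 3 (limma adjusted p = 0.0672 to 0.0969), and with GC centring, with only the groups compared or with robust limma (limma adjusted p = 0.0983, 0.0872 and 0.0562). With a common median for all libraries Mef2d was not called in either (log2 -0.095 against K2KO and 0.046 against K4KO, limma adjusted p = 0.532 and 0.765). Krit1 was not called in either comparison (log2 0.18 and 0.15, limma adjusted p = 0.160 and 0.221), and was called higher in both with that scaling (0.45 and 0.46). So was Ccm2 (0.45 and 0.39, limma adjusted p = 0.0239 and 0.0463), and Mef2c against K4KO (0.32, limma adjusted p = 0.0272). Against K2KO, Ccm2 was also called with GC centring (0.33, limma adjusted p = 0.00415).

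Whether the DKO-labelled change exceeds the sum of the changes in the single knockouts was tested with the interaction, the DKO-labelled minus K2KO difference less the K4KO minus control difference. It was called for 4 of the 10 genes, where 26.7% of all genes tested were called. Map3k3 changed by 0.58 in DKO-labelled libraries, against a sum of -0.01 for the single knockouts, an interaction of 0.60 ± 0.13 (SE, limma adjusted p = 0.00177). Mef2a changed by 0.50, against a sum of 0.03, an interaction of 0.48 ± 0.13 (limma adjusted p = 0.0107). For Pdcd10 the change was 0.67, against a sum of 0.22, an interaction of 0.45 ± 0.13 (limma adjusted p = 0.0167). Heg1 changed by -0.99, against a sum of -0.37, an interaction of -0.61 ± 0.14 (limma adjusted p = 0.00234). The Mef2a and Pdcd10 interactions were not called with quantile normalisation (limma adjusted p = 0.130 and 0.104), nor that of Heg1 with libraries scaled to the same median, where it was -0.29 (limma adjusted p = 0.232). Mapk7, at 0.50 ± 0.20 (limma adjusted p = 0.0748), was called in 4 of 25 alternatives, which were the common median (0.82), GC centring (0.59) and leaving out K4KO library 1 or control library 4. Mef2d, at -0.22 ± 0.13 (limma adjusted p = 0.217), was called with quantile normalisation (-0.39) and without K4KO library 4, and Krit1 with the common median (0.40, limma adjusted p = 0.0471).

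**Figure D2:**
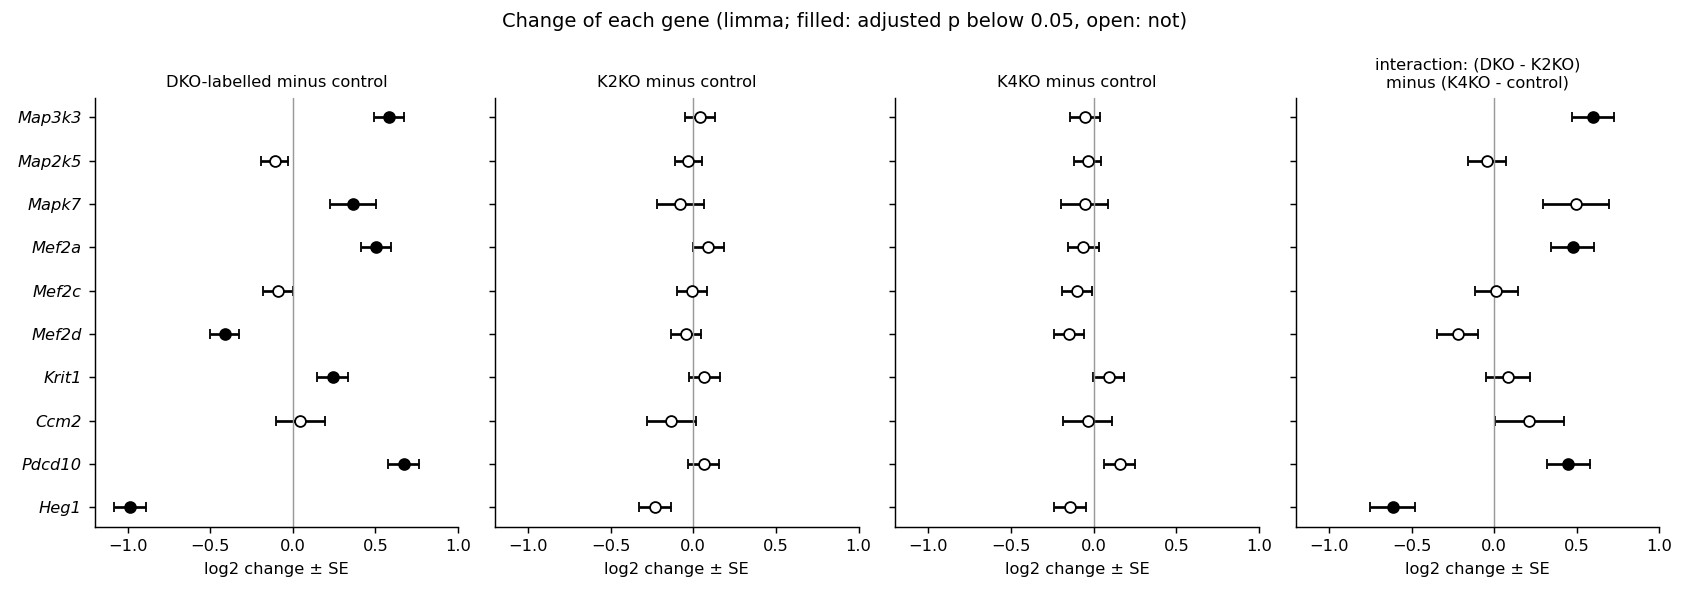
Log2 change with its SE (horizontal axis) of the 10 genes in DKO-labelled, K2KO and K4KO libraries against control and in the interaction, from limma, with filled points for an adjusted p below 0.05. DKO-labelled changes run from -0.99 (Heg1) to 0.67 (Pdcd10), while those of K2KO and K4KO lie between -0.23 and 0.16 with all points open.

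To set the genes against each other, levels were divided by exon length. In control, Heg1 had the highest level, 3644 ± 412 scaled counts per kilobase of exon (SD, n = 4), followed by Map3k3 at 1514 ± 105 and, with overlapping libraries, Mef2c at 1014 ± 74 and Mef2a at 993 ± 52. Mef2d stood at 775 ± 25. Pdcd10 (360 ± 16), Ccm2 (333 ± 32), Map2k5 (275 ± 18) and Krit1 (251.2 ± 21.9) followed, each overlapping the next of these 4, and Mapk7 had the lowest level, 180 ± 20, below all libraries of Krit1. The K2KO and K4KO libraries began with the same 2 genes and also ended with Mapk7, at 170 ± 9 and 176 ± 39. In DKO-labelled libraries the order at the top differed. Map3k3, at 2272 ± 228 per kilobase, overlapped Heg1 at 1838 ± 209, and Mef2a, at 1408 ± 96, stood clear above Mef2c at 951 ± 50. Pdcd10, at 574 ± 49, overlapped Mef2d at 583 ± 47, which in control it did not reach.

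**Figure D3:**
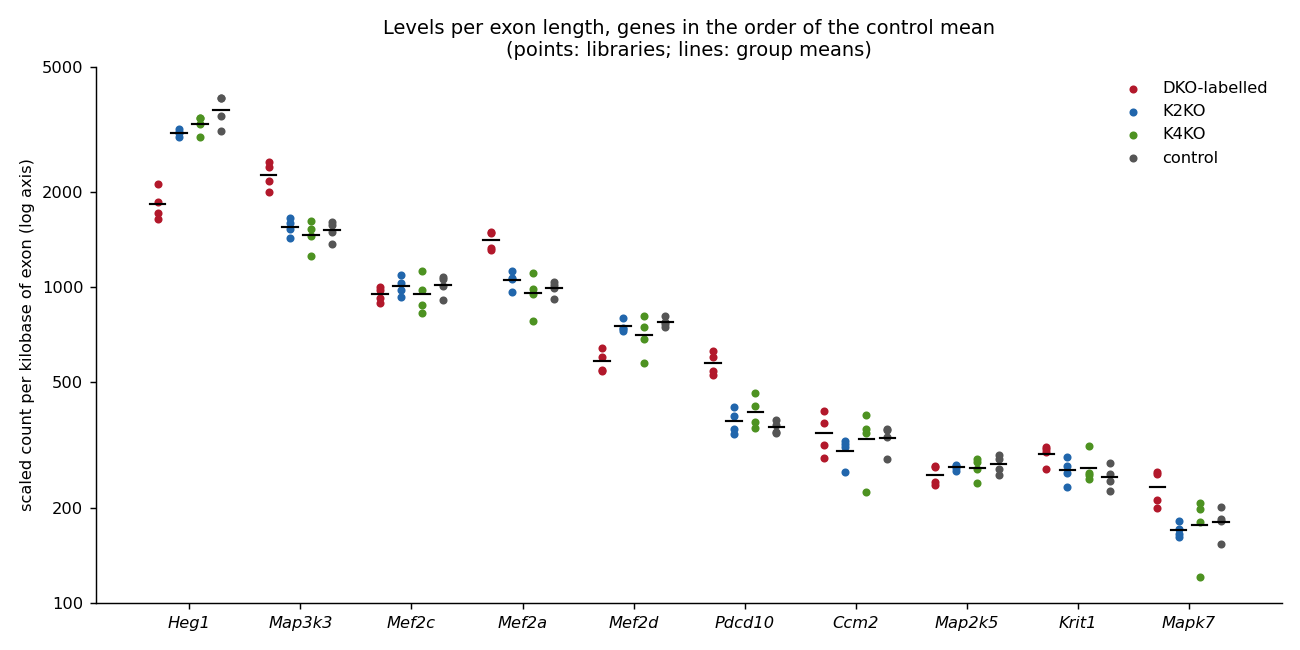
Scaled counts per kilobase of exon (vertical axis, log scale) of the 10 genes in the 16 libraries, ordered by the control mean, with group means as lines. Heg1 is highest in K2KO, K4KO and control, at 3092 to 3644 on average, and overlaps Map3k3 in DKO-labelled libraries.

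Over the 16 libraries, deviations from the group means placed 9 of the 10 genes in 2 sets, and Heg1 in neither. The sets were the genes with the lower and those with the higher GC content of their transcripts. Not every group followed them. In DKO-labelled libraries 2 to 5, Mef2a deviated by -0.076, 0.081, 0.090 and -0.094 on the log2 scale. Mapk7, of the other set, went the same way (-0.204, 0.174, 0.155 and -0.125). Mef2c, of the same set as Mef2a, went the opposite way (0.079, -0.037, -0.088 and 0.046). In K4KO library 4, Mapk7 had 408 scaled counts, against 608 to 701 in the other K4KO libraries, and Ccm2 had 468, against 722 to 823. Mef2c was highest in that library, at 8211 against 6065 to 7154, and so were Krit1, at 1879 against 1480 to 1546, and Mef2a, at 6340 against 4447 to 5603. The transcripts of Pdcd10, Krit1, Mef2c and Mef2a hold 35.9, 39.0, 40.8 and 42.0% GC, that of Heg1 50.8%, and those of Map2k5, Map3k3, Mef2d, Ccm2 and Mapk7 53.9 to 57.3%. Over all genes with a mean of at least 100, the median deviation of that library from its group was 0.20 on the log2 scale in the third of genes with the least GC and -0.30 in the third with the most. In control library 4 it was 0.10 and -0.17. Taken as deviations from the group means over the 16 libraries, Pearson r lay between 0.47 and 0.87 among Pdcd10, Krit1, Mef2c and Mef2a, and between 0.51 and 0.95 among Map2k5, Map3k3, Mef2d, Ccm2 and Mapk7. Between the 2 sets it lay between -0.89 (Mapk7 with Mef2c) and -0.044 (Map3k3 with Pdcd10), and for Heg1 with the others between -0.60 and -0.025. These r are descriptions over libraries that share their GC shift, and no test was made of them. K4KO library 4 and control library 4 differed in more than GC. Mitochondrial rRNA took 22.8 and 22.7% of their reads, the highest shares of the 16 libraries. Their cardiomyocyte markers summed to 485141 and 558115 scaled counts, with 507372 in K4KO library 2. The part of these differences in the r was not tested. Without K4KO library 4, the count of the 10 genes called against control stayed 0.

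**Figure D4:**
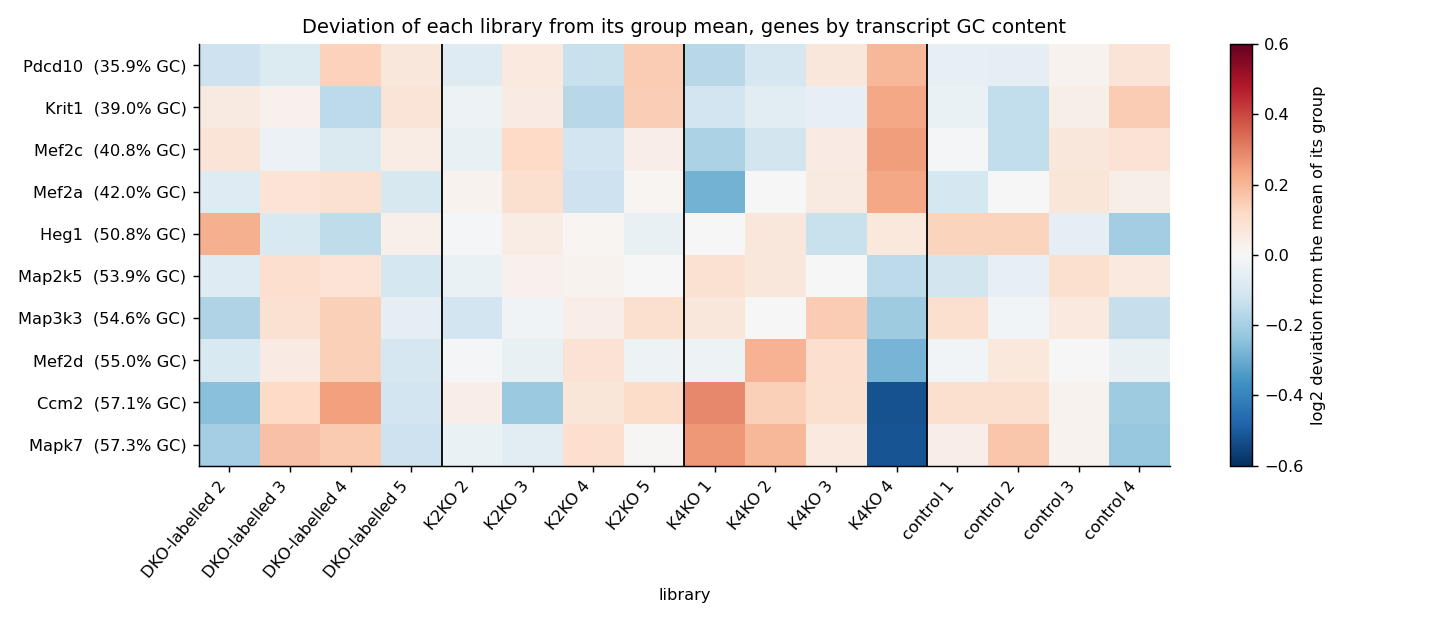
Log2 deviation of each library from the mean of its own group (colour) for the 10 genes, ordered from the lowest transcript GC content (Pdcd10, 35.9%) to the highest (Mapk7, 57.3%). K4KO library 4 is high for the 4 genes with the least GC and low for Map2k5, Map3k3, Mef2d, Ccm2 and Mapk7.

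Genes around the pathway were read from 5 lists, chosen like the 10 genes with results of these data known. Of 12 partners of the CCM complex, 6 rose and 2 fell in DKO-labelled libraries against control, with a median log2 change of 0.29, and the 8 called compare with 38.3% of all genes. Cdc42, a small GTPase, averaged 21068 ± 708 scaled counts in DKO-labelled libraries and 12054 ± 936 in control (SD, n = 4 each), a log2 change of 0.81 (limma adjusted p = 6.07e-07). Ccm2l, an endothelial relative of Ccm2, averaged 1217 ± 79 and 2909 ± 543 (log2 -1.24, limma adjusted p = 3.69e-07). Of the kinases that PDCD10 binds, Stk25 rose by 0.34 and Stk26 fell by 1.35 on the log2 scale (limma adjusted p = 0.00273 and 2.41e-06), and Stk24 was not called (-0.15). Strn, a striatin that holds these kinases in a phosphatase complex, rose by 0.36 (limma adjusted p = 0.000663).

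Among 14 genes of other MAP kinase modules, 6 rose and 2 fell (median log2 0.14), where 19% of all genes tested were called higher and 19.3% lower. Map2k3 rose by 0.85, Map2k4 by 0.49 and Map2k1 by 0.41 on the log2 scale (limma adjusted p = 1.95e-06, 1.54e-05 and 0.000217). Map3k1, another kinase at the head of a cascade, fell by 1.04 (limma adjusted p = 2.45e-08). Map3k2, the closest relative of Map3k3, was not called (-0.04). Of 10 flow-sensing genes, 5 rose and 3 fell (median log2 0.27), beside the same shares of all genes. The junction protein genes Cdh5 and Pecam1 rose by 0.89 and 0.44, and the receptor gene Kdr fell by 0.54 (limma adjusted p = 9.60e-07, 0.000582 and 0.000524). Gna11, a G protein subunit, fell by 0.48, and Gab1, an adaptor, by 0.27 (limma adjusted p = 0.00996 and 0.00852). These junction and receptor genes are endothelial markers too.

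None of 12 partners and regulators of MEF2 rose and 7 fell, with a median log2 change of -0.30. Of all genes tested, 19% were called higher and 19.3% lower. Hdac5 and Hdac9, class IIa deacetylases that bind and repress MEF2, fell by 0.76 and 0.81. Prkd1, Prkd2 and Camk2g, kinases of families that export such deacetylases from the nucleus, fell by 0.84, 0.46 and 0.65. The limma adjusted p of these 5 lay between 6.20e-07 and 0.000844. Hdac7, the class IIa member best known from endothelium, was not called (log2 -0.31, limma adjusted p = 0.101). Several of these genes are expressed in heart muscle as well, whose markers fell as given above.

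Of 13 genes known to lie downstream of MEKK3 or of CCM loss, 6 rose and 3 fell (median log2 0.36). Among all genes tested, 19% were called higher and 19.3% lower. Adamts4 and Vcan, a protease and its matrix substrate, rose by 2.54 and 1.79, and Klf6, another Krüppel-like factor, by 1.44 (limma adjusted p = 1.37e-06, 3.35e-07 and 4.49e-06). Adamts4 averaged 3250 ± 888 scaled counts in DKO-labelled libraries, against 1947 ± 292 in K2KO, 770 ± 236 in K4KO and 609 ± 375 in control. Thbd, thrombomodulin, and Id1, a target of BMP signalling, fell by 2.01 and 1.62 (limma adjusted p = 5.18e-09 and 6.21e-07). In K2KO, Adamts4 rose and Klf2 fell and no other gene of the 5 lists was called, and in K4KO none was. Of all genes tested, 0.168% were called in K2KO and 0.063% in K4KO.

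**Figure D5:**
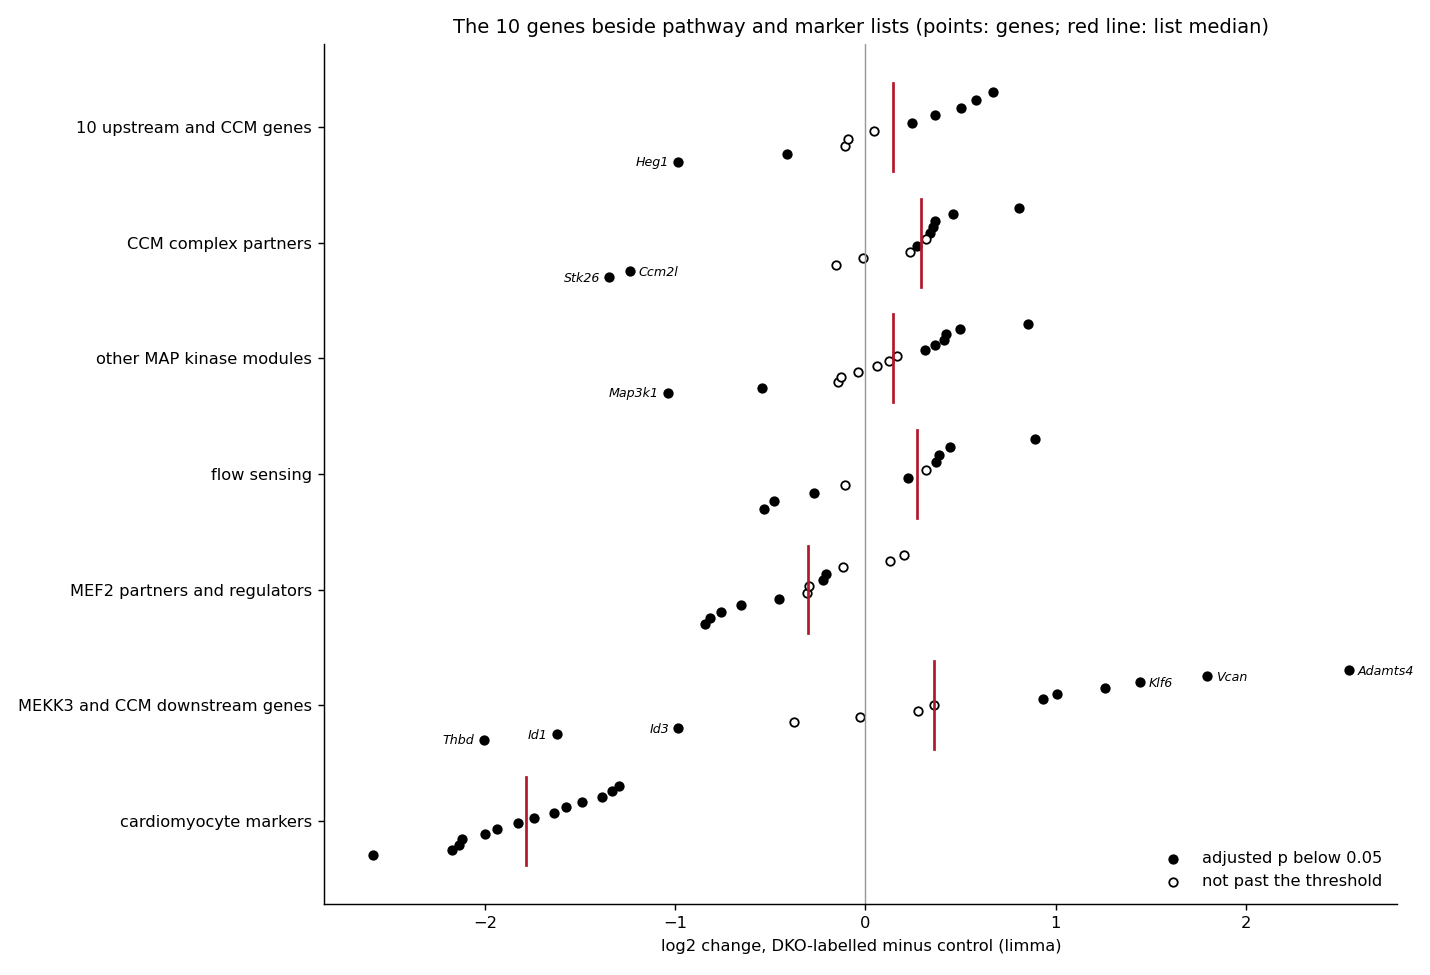
Log2 change in DKO-labelled against control libraries (horizontal axis) of the 10 genes, of 5 pathway lists and of the cardiomyocyte markers, 1 point per gene and a red line at the median of each list, with filled points for a limma adjusted p below 0.05. The 14 cardiomyocyte markers run from -2.59 to -1.30, and the medians of the pathway lists lie between -0.30 and 0.36.

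The genes whose levels ran most like each of the 10 were sought by Pearson r of log2 values over the 16 libraries, among 10847 genes with a mean of at least 100. Map3k3 went with Usp4 (r = 0.989), Mef2a with Tcf4 (0.987) and Elk4 (0.974), Pdcd10 with Mmadhc (0.979) and Abhd17b (0.977), and Heg1 with Dnm3 (0.988) and Dcp1b (0.986). Mapk7 went with Prdx5 (0.977) and Aldoa (0.974). The highest r were 0.945 for Mef2c (Msl2) and Mef2d (Usp36), 0.954 for Krit1 (Zfp597) and 0.930 for Ccm2 (Pgls), and 0.786 for Map2k5 (Qtrt1). The points share their groups and their GC shift, and these r are descriptions only.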

How the data were processed

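RNA of heart endothelial cells was measured in 16 libraries. The submitters' processing notes name TopHat, Cuffdiff and the build GRCm38. The sources used here do not give the counting tool, its use of strand or the annotation. The authors deposited 1 signal per gene and library, a read count divided by 1 factor per library: 100% of values were whole multiples of 1 step within 0.001 reads. The authors also deposited a linear fold change (a ratio) and an adjusted p-value for each comparison, from a test the file headers do not name, used here only where named as theirs.

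Limma 3.58.1 (R 4.3.3, eBayes with trend) was fitted to log2(value + 1), a scale that understates changes of low genes, over the 23816 genes that reached 1 in 4 or more libraries. The 16 libraries shared 1 model of 4 group means, with Benjamini-Hochberg adjustment over all genes per comparison and a threshold of 0.05. The values expected before the files were read were normalised ones, and edgeR 4.0.16 and DESeq2 1.42.0 on the recovered reads were alternatives, with other scalings, filters and left-out libraries, and GC centring chosen after seeing the data. The steps were tested on simulated data. P-values measure the spread between pooled libraries that the labels do not say were prepared independently.

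Column numbers of control and K4KO match the labels. A replicate block by these numbers was fitted there as an alternative, though the labels name no pairing. Deviations of same-numbered libraries from their group means had r of 0.141, 0.219, 0.257 and 0.523 over 11315 genes. The 0.523 is that of K4KO library 4 with control library 4, both with the GC shift given above. Pairs of different numbers had r of -0.548 to 0.399, the highest for K4KO library 1 with control library 2. K2KO and DKO columns are numbered 2 to 5 and were tied to no single sample. The 10 genes and all lists were chosen with earlier results of these data known. Named genes are the 10, Klf2 and Klf4, up to 5 per pathway list with the smallest p, up to 2 abundant genes per marker list, and up to 2 genes most like each of the 10. Some genes that these rules name are not reported here, and a few others (Stk24, Map3k2, Hdac7) were named after their values were seen. Exon lengths and GC come from GENCODE gene models of GRCm38 and promoters from RefSeq.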

Additional observations from a re-analysis of the deposited data

Results flagged for a closer look

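The Krit1 level of K4KO library 4 stood apart from its group, at 1879 scaled counts, where the nearest of the other 3 libraries had 1546, a gap of 0.836 of the group's range. It was the only such value among the 40 groups of 4 libraries examined for the 10 genes. Chance gives such a gap in about 1 in 20 groups, so 1 among 40 does not stand out. The 40 groups share the same 16 libraries and are not independent, and no test was made of this count. The same library was low in Mapk7 and Ccm2, and its GC shift is given above. The part of that shift in the Krit1 value was not tested.

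The DKO-labelled minus K2KO difference was unlike the K4KO minus control difference in 4 of the 10 genes, by the interaction in limma. The difference was 0.60 for Map3k3 (adjusted p = 0.00177), 0.48 for Mef2a (adjusted p = 0.0107), 0.45 for Pdcd10 (adjusted p = 0.0167) and -0.61 for Heg1 (adjusted p = 0.00234). All 4 rest on the libraries labelled DKO, in which neither Klf2 nor Klf4 was called lower than in control.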

How the results depend on the processing

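In the comparison of DKO-labelled libraries with control, Map3k3, Mef2a, Pdcd10 and Heg1 were called in the same direction in all 18 alternatives, and Mef2d in 17. Mapk7 was called in 9 and Krit1 in 7. The log2 changes over these alternatives ran from 0.38 to 0.85 for Map3k3, 0.31 to 0.77 for Mef2a, 0.58 to 0.93 for Pdcd10 and -1.10 to -0.72 for Heg1. Between 5 and 8 of the 10 genes were called, and leaving out each library gave 5 to 6. Ccm2 was called higher with GC centring (0.23, limma adjusted p = 0.0411) and Mef2c lower with GC centring and with quantile normalisation. The causes of these shifts were not tested.

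With a common median for all libraries the sign turned for Map2k5 (0.16), Mef2c (0.17) and Klf4 (0.24) in DKO-labelled against control, and Klf2 became higher (0.63). It turned Map2k5 (0.19) and Mef2c (0.19) against K2KO, Map2k5 (0.24) and Mef2d (0.046) against K4KO, and Map2k5 (0.28) and Mef2d (0.10) in the interaction. GC centring turned Klf4 (0.074) against control, where Klf2 was 0.66, Map2k5 (0.029) against K2KO, Map2k5 (0.018) and Mef2c (-0.012) against K4KO, Map2k5 (0.055) in the interaction, Pdcd10 (-0.010) in K2KO, and Mapk7 (0.0021) and Ccm2 (0.020) in K4KO, the last 2 with the same values under the block. Quantile normalisation turned Ccm2 (-0.028) against control, Mef2c (-0.19), Krit1 (-0.014) and Ccm2 (-0.018) against K4KO, and Mef2c (-0.15) and Krit1 (-0.079) in the interaction. For Mef2c against K4KO, DESeq2 gave -0.0022 and edgeR -0.037, and edgeR gave -0.027 in the interaction. None of these turned values was called. Of the values they replace, that of Mef2d against K4KO was called.

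The replicate block, with K4KO and control paired by number, left 0 of the 10 genes called and took Klf4 in K4KO past the threshold (-0.71, limma adjusted p = 0.0284). With GC centring the blocked value was -0.70, and DESeq2 gave -0.74. Over all genes, K2KO against control gave 40 calls, and 123 with DESeq2, 24 with no filter, 63 with only the groups compared and 10 with robust limma, in which Klf2 (-1.06) was not called. K4KO against control gave 15, and 80 with DESeq2, 32 with GC centring, 42 with GC centring and the block, 8 with no filter, 2 with only the groups compared and 2 with robust limma.

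Leaving out each library in turn gave 13 to 137 calls in K2KO and 4 to 14 in K4KO. It moved Klf2 in K2KO over -1.17 to -0.85, and Klf2 and Klf4 in DKO-labelled libraries over 0.25 to 0.57 and -0.14 to 0.14. It turned values near 0 in sign, over -0.038 to 0.13 for Ccm2 in DKO-labelled libraries against control, and against K4KO over -0.094 to 0.18 for Ccm2 and -0.056 to 0.090 for Mef2c. In K2KO the ranges were -0.066 to 0.0035 for Map2k5, -0.0063 to 0.078 for Map3k3 and -0.057 to 0.031 for Mef2c. In K4KO they were -0.13 to 0.14 for Ccm2, -0.073 to 0.016 for Map2k5, -0.10 to 0.018 for Map3k3, -0.14 to 0.12 for Mapk7 and -0.14 to 0.031 for Mef2a, and in the interaction -0.049 to 0.097 for Mef2c. Ccm2 and Mapk7, at 322 to 981 reads per library outside DKO library 4, carry the largest SE of the 10. Map2k5, at 437 to 1070 reads outside that library, carries the smallest, 0.082 against control. The part of read number in these SE was not tested.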

Other observations

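Neighbours of the 10 genes were read by position. Ankib1 starts 259 bases from Krit1 on the other strand and rose in DKO-labelled libraries, where it averaged 3953 ± 108 scaled counts, against 2610 ± 143 in control (SD, n = 4 each), a log2 change of 0.60 (limma adjusted p = 9.00e-07). Serpini1 starts 691 bases from Pdcd10 on the other strand and fell, to 1205 ± 94 in DKO-labelled libraries, against 1612 ± 77 in control (log2 -0.42, limma adjusted p = 0.000496). Krit1 and Ankib1 thus moved in 1 direction, and Pdcd10 and Serpini1 in opposite ones. The rise of Krit1 was just past the threshold (limma adjusted p = 0.0475) and was called in 7 of 18 alternatives.

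The use of strand in counting is not given, so reads of overlapping genes cannot be told apart. Lysmd4 overlaps Mef2a on the other strand over 76168 bases of gene span and averaged 297 ± 22 scaled counts in DKO-labelled libraries and 340 ± 19 in control. Mfap4 overlaps Mapk7 by 89 bases, at 30.7 ± 10.8 and 54.0 ± 15.4. The antisense genes over Map3k3, Mef2d and Heg1 averaged at most 9.96 scaled counts in DKO-labelled libraries and 7.08 in control.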
